A study of Drosophila melanogaster with 3 samples.

Results

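The X chromosome of Drosophila melanogaster carried 773 of the 3159 peaks called after chromatin immunoprecipitation and sequencing of GFP-tagged Deformed (24.5% of the list, exact 95% binomial interval 23.0 to 26.0). The members are every row of the deposited peak list whose sequence name is exactly X, on genome build BDGP5 (Release 5). The separate sequence XHet, the heterochromatic part of X in that build, was left out. It held 3 peaks of 586 to 754 bp with scores of 57.8 to 77.92. The comparison is with the 479 peaks on chromosome arm 2L, the 572 on 3L and the 652 on 3R, 1703 together. The other arms named below are these 3 only, and no further arm was compared. The remaining peaks of the list were left out, apart from an alternative that added heterochromatic sequences.

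The series has 1 ChIP sample of Dfd-GFP, made with an antibody against GFP (NWG-GFP), and 2 input samples of chromatin that was not immunoprecipitated. All 3 carry 10T-W3L as their stage, a code left unexplained in the labels, and the growth protocol names y w, VK37 flies and the collection of embryos. The tagged protein was expressed from a transgene, and the labels used here do not name the promoter that drives it or the sex of the animals. Replicates 1 and 2 of the ChIP share a sample title and a peak list, so each region has a single value and no replicate error. Input peaks or coverage were not analysed here, and read depth is unknown. The list holds no value from which the tagged gene could be checked.

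Deformed belongs to the Hox proteins, homeodomain transcription factors that give body segments their identity along the head to tail axis. It is known for specifying the mandibular and maxillary segments of the head and for maintaining its own expression through an autoregulatory enhancer. Hox homeodomains recognise short AT-rich sequences that are frequent in the genome, and cofactors such as Extradenticle sharpen where they bind. X is a rod-shaped sex chromosome with its telomere at low coordinates and its centromere at high coordinates. Males carry a single X and females a pair. A peak is a stretch of the genome that the peak caller marked as holding more reads than it expected, and its score is the authors' own value, used here only to rank and filter peaks. No peak was assigned to a gene.

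Peaks were spread along the whole of X and were more closely packed there than on 2L, 3L and 3R. The first began at position 160068 and the last ended at 22420899, a span of 22.3 Mb with 34.7 peaks per Mb. The density was 21.0 peaks per Mb on 2L, 24.6 on 3L and 23.4 on 3R, each over the span from its own first to its own last peak. Against these 3 arms together, at 23.0 peaks per Mb, the X density was 1.51 times as high (exact 95% interval 1.38 to 1.64). The interval counts each peak as independent and covers counting error only. X peaks covered 550 kb, or 2.47% of the span, against 1.56% on 2L, 1.88% on 3L and 1.80% on 3R. No p-value is given for this or any later comparison, because the 1 list has no replicate and neighbouring peaks are not replicates of a condition.

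The profile along X was read in fixed 1 Mb bins counted from position 1, with each peak placed by its centre. The part bins at the distal and proximal ends of X, with 10 and 4 peaks, were left out. The 21 bins that lie wholly inside the span held 36.1 ± 8.92 peaks (mean ± SD over bins). The 69 such bins of 2L, 3L and 3R held 23.0 ± 7.22. The lowest X bin held 23 peaks, the median bin 33 and the highest 53. All 21 X bins lay above the mean of the bins of the 3 arms, and 4 lay above the highest of those bins, which was on 3L from 10000001 to 11000000 and held 46. The densest bin of 2L, from 3000001 to 4000000, held 30 peaks, and that of 3R, from 14000001 to 15000000, held 39. The lowest X bin was only just above that mean. Without its 3 densest bins the density ratio was 1.40 (95% interval 1.28 to 1.54).

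**Figure D1:**
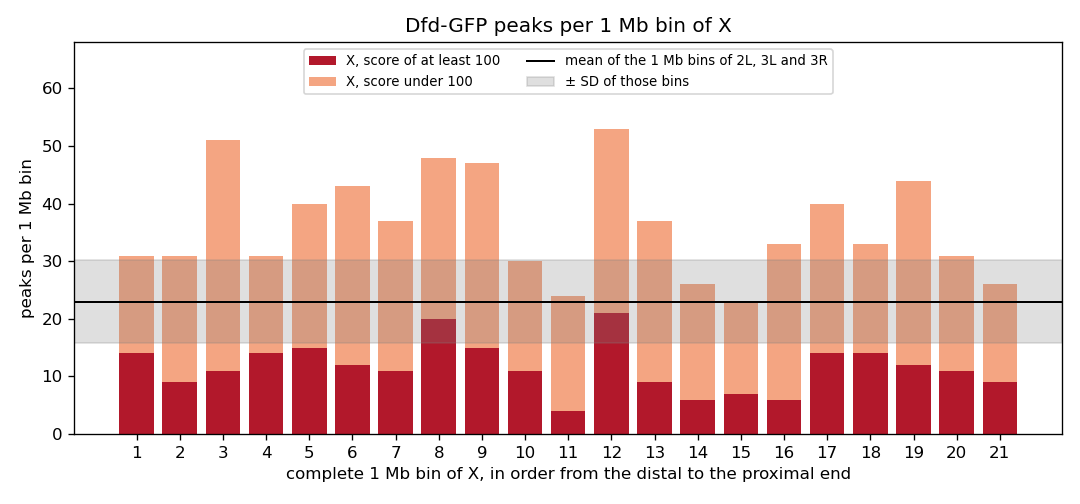
Peaks per complete 1 Mb bin of X (vertical axis, count) in order from the distal to the proximal end (horizontal axis, bin order), split at a score of 100. The line and band give the mean and SD of the 69 bins of 2L, 3L and 3R, 23.0 ± 7.22. The X bins range from 23 to 53 peaks, and the 12th, from 12000001 to 13000000, is the highest.

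The 3 densest bins of X lay apart from each other and together held 152 peaks, or 19.7% of all X peaks. The first was X from 12000001 to 13000000, with 53 peaks. Of these 21 scored at least 100, 23 lay in groups of 3 or more (runs of peaks with gaps of at most 5 kb), and 10 were wider than 1 kb. The second, from 3000001 to 4000000, held 51 peaks, of which 11 scored at least 100 and 2 were wider than 1 kb. The third, from 8000001 to 9000000, held 48 peaks, of which 20 scored at least 100. The second bin was thus nearly as full as the first, with about the same median width (656 bp against 667 bp) but with fewer high scores. No 100 kb bin within the second or the third was empty.

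Among complete bins, which leave out the thinly covered ends of X, the 3 sparsest lay in the proximal 50% of the span or across its midpoint. Together they held 73 peaks, or 9.44% of the X peaks. They were X from 15000001 to 16000000 with 23 peaks, from 11000001 to 12000000 with 24, and from 21000001 to 22000000 with 26. A further bin, from 14000001 to 15000000, also held 26. The bin from 11000001 to 12000000 stood directly beside the densest bin of the chromosome, and the step between them, 29 peaks, was the largest between any neighbouring complete bins of X. The median step was 9.5 peaks. In the 24-peak bin 4 peaks scored at least 100 and none was wider than 1 kb. The densest complete bin held 2.30 times as many peaks as the sparsest.

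From the distal to the proximal end the X peaks were close to evenly shared out. Cut into 4 stretches of 25% of the span, X held 189, 219, 185 and 180 peaks from distal to proximal. In the same order 2L held 146, 110, 95 and 128, 3L held 147, 169, 127 and 129, and 3R, counted from its high coordinates, held 153, 175, 179 and 145. The distal 50% of the span held 52.8% of the X peaks (408 peaks, exact 95% interval 49.2 to 56.3). That share was 53.4% on 2L (interval 48.9 to 58.0), 55.2% on 3L (51.1 to 59.4) and 50.3% on 3R (46.4 to 54.2). Of the 4 intervals only that of 3L left out 50%. The X interval holds 50%, so no distal or proximal excess was detectable on X at this number of peaks. Without the densest 1 Mb bin, which lies just proximal of the midpoint, the distal share of X was 56.7% (interval 53.0 to 60.3). That bin was picked for its count, its removal can only raise the distal share, and even density would then give 52.4% in place of 50%.

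**Figure D2:**
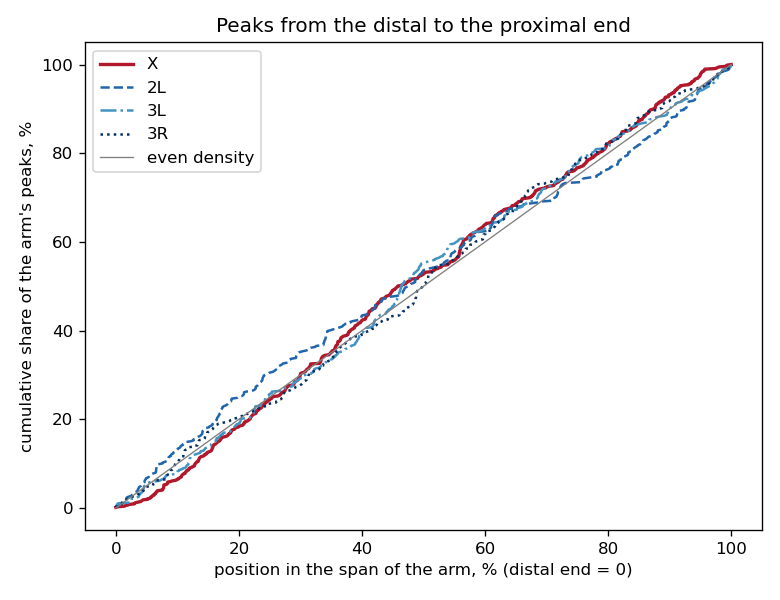
Cumulative share of the peaks of each arm (vertical axis, %) against position in the span of that arm (horizontal axis, %, with the distal end at 0). The X line runs close to the line of even density, with 52.8% of peaks in the distal 50% of the span, and rises steeply just past the midpoint, where the densest 1 Mb bin lies.

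By variance over mean, the counts of 1 Mb bins were uneven to a similar degree on X and on the other arms. The variance over the mean of the counts in complete 1 Mb bins was 2.20 on X, against 1.75 on 2L, 2.31 on 3L and 2.45 on 3R. For independent events of even density this ratio would be close to 1. The X value fell inside the range of the other arms. On X it was 1.14 among peaks in the upper 50% of scores and 1.58 among peaks scoring at least 100, with fewer peaks per bin in both.

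At the finer scale of fixed 100 kb bins, X had fewer empty bins and more full ones. Of 222 complete bins of X, 24 held no peak (10.8%, exact 95% interval 7.05 to 15.7). On 2L 49 of 227 bins were empty (21.6%), on 3L 41 of 232 (17.7%) and on 3R 48 of 277 (17.3%), or 138 of 736 together (18.8%, interval 16.0 to 21.8). The median bin held 3 peaks on X and 2 on each of the other arms. At least 7 peaks were found in 28 X bins (12.6%, interval 8.55 to 17.7), against 34 bins of the 3 arms (4.62%, interval 3.22 to 6.40). Both shares also depend on how dense an arm is, and whether they go beyond that was not tested.

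**Figure D3:**
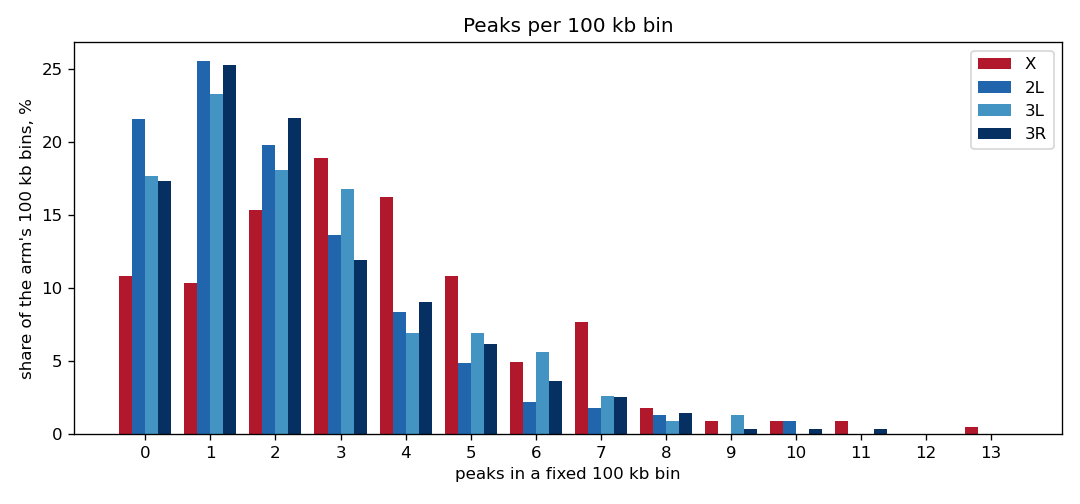
Share of each arm's complete 100 kb bins (vertical axis, %) by the number of peaks they hold (horizontal axis). On X 10.8% of bins are empty, against 21.6% on 2L, 17.7% on 3L and 17.3% on 3R, and the single bin with 13 peaks is on X.

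The 5 fullest 100 kb bins of X lay in 4 places. Neighbouring bins from 12500001 to 12600000 and from 12600001 to 12700000 held 11 and 13 peaks. The bin from 8100001 to 8200000 held 11, and those from 1800001 to 1900000 and from 3600001 to 3700000 held 10 each. They differed in the strength and width of their peaks. The median width was 932 bp in the bin that starts at 12500001 and 796 bp in that at 1800001, with median scores of 111 and 105. The bin at 3600001 had a median width of 616.5 bp, a median score of 70.7 and no score above 138.56. The bin at 8100001 held the highest score of X, 2801.74, yet its median score was 59.4.

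Most neighbouring peaks on X were several kb apart or more. The gap between the end of a peak and the start of the next had a median of 15.4 kb over 772 gaps (95% interval of the median 13.1 to 17.3, from order statistics), with quartiles of 4.98 and 35.7 kb. The median gap was 25.4 kb on 2L, 21.3 kb on 3L and 22.3 kb on 3R. The intervals of these medians, from 18.4 kb at the lowest, did not overlap that of X. Scaled to the mean gap of its own arm, the median was 0.549 on X, against 0.539 on 2L, 0.533 on 3L and 0.529 on 3R. Once density was taken out in this way, the typical spacing of X peaks was close to that of the other arms.

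Gaps under 1 kb were about as frequent on X as on 2L, 3L and 3R, and gaps over 100 kb were fewer. Gaps under 1 kb made up 7.51% of the gaps on X (58 gaps), against 7.95% on 2L, 7.36% on 3L and 6.30% on 3R, although X was denser. Gaps shorter than 10% of the mean gap of the arm made up 15.3% on X, against 19.9% on 2L, 18.6% on 3L and 16.1% on 3R. Gaps over 100 kb made up 4.40% on X (34 gaps), against 11.5% on the 3 arms together (195 gaps). Gaps over 3 times the mean gap of the arm, a limit that scales with density, made up 6.22% on X, against 7.95% on 2L, 7.88% on 3L and 7.99% on 3R. The arms thus lay closer together on the scaled limit than on the fixed one. The gaps over 100 kb took up 24.9% of the span of X, against 48.1% of 2L, 41.0% of 3L and 43.0% of 3R. Only 26 X peaks (3.36%) had no other peak centre within 50 kb, against 11.7% on 2L, 8.74% on 3L and 10.1% on 3R.

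**Figure D4:**
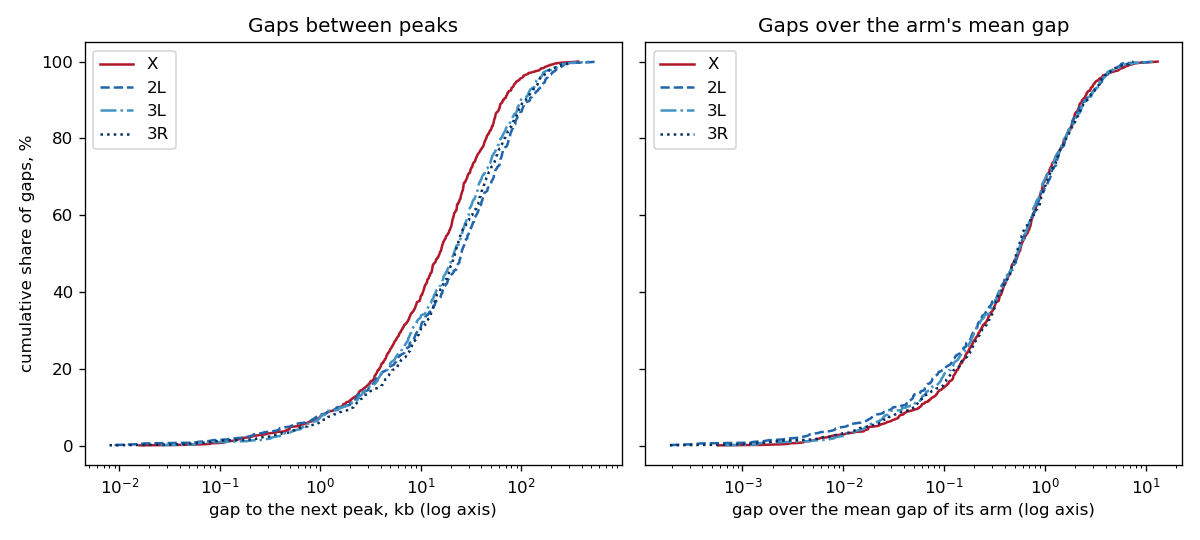
Cumulative share of gaps between consecutive peaks (vertical axis, %) against gap length in kb (left) and against gap length over the mean gap of the arm (right), both on log axes. On the left the X line lies at shorter gaps than the others, with medians of 15.4 kb on X and of 21.3 to 25.4 kb on the other arms, and on the right the 4 lines run together at the middle.

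The closest neighbours on X were separated by fewer than 100 bp. The smallest gap, 16 bp, lay in the pair from 16185790 to 16187279, whose peaks scored 83.54 and 69.79. A gap of 44 bp lay in the pair from 4788269 to 4789719, with scores of 234.35 and 53.33. In all 5 X gaps were under 100 bp, against 7 on 2L, 5 on 3L and 8 on 3R. Whether the caller divided a broader region in such pairs was not tested. When peaks under 1 kb apart were joined, 715 regions remained on X, of which 54 were made from more than 1 peak and none from more than 3.

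Short-range grouping was common on X, at fixed distances that take in more neighbours on a denser arm. Of the 773 X peaks 294 (38.0%, exact 95% interval 34.6 to 41.6) had another peak centre within 5 kb, against 34.7% on 2L, 34.4% on 3L and 28.4% on 3R. At 2 kb the share was 16.6% on X (interval 14.0 to 19.4), against 15.9% on 2L, 15.9% on 3L and 14.9% on 3R. At 20 kb it was 78.9% on X, against 64.7% on 2L, 69.8% on 3L and 67.0% on 3R. The arms were thus nearly alike at 2 kb and further apart at 20 kb. On a limit that scales with density, gaps under 10% of the mean gap of the arm, X had the lowest share. It was 15.3% on X, against 19.9% on 2L, 18.6% on 3L and 16.1% on 3R. With peaks under 1 kb apart joined, the share within 5 kb was 27.1% on X (interval 23.9 to 30.6), against 22.7% on 2L, 23.4% on 3L and 18.5% on 3R.

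A group was defined as a run of consecutive peaks with gaps of at most 5 kb, a fixed limit that joins more peaks on a denser arm. By this rule 443 X peaks (57.3%) stood alone, 102 runs were pairs, and 34 runs held 3 peaks or more. These 34 groups held 126 peaks, or 16.3% of the X peaks (exact 95% interval 13.8 to 19.1), against 210 of 1703 on the 3 arms (12.3%, interval 10.8 to 14.0). The 2 intervals overlap. Of the X groups 22 held 3 peaks, 7 held 4 and 5 held 5 or more. Their median length was 7.93 kb. With peaks under 1 kb apart joined first, 19 groups of 3 or more regions remained on X, holding 69 of its 715 regions. There were 10 on 2L (30 of 441 regions), 9 on 3L (30 of 530) and 16 on 3R (53 of 611).

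The largest group of the 4 arms, X from 12577573 to 12609538, had 9 peaks in 32.0 kb. The largest on 3R held 7 peaks (14242033 to 14260751), and those of 2L (21613592 to 21622748) and 3L (2823859 to 2835411) held 5 each. From distal to proximal, the 9 peaks of the X group scored 110.12, 222.7, 114.78, 55.8, 86.24, 111.14, 176.44, 112.98 and 551.52. In the same order they were 638, 1250, 844, 1167, 1324, 932, 966, 724 and 1987 bp wide. Of the 9 peaks 8 were wider than the X median of 665 bp, and 8 scored above the X median of 80.3. The strongest and widest was the most proximal, from 12607552 to 12609538. Gaps inside the group ran from 446 bp to 4.80 kb.

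That group stood in a longer dense stretch. Extending outward until a gap exceeded 20 kb gave a stretch of 76.1 kb, from 12570587 to 12646649, with 19 peaks. Its median score was 90.6 and its median width 724 bp. It contained a group of 6 peaks from 12615022 to 12631609, and near its proximal end the fourth highest scoring peak of X. Further towards the centromere, in the same 1 Mb bin, lay a group of 5 peaks from 12725019 to 12736523, with scores of up to 522.8.

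The other groups with 6 peaks lay elsewhere. The group from 1888098 to 1899076 was the tightest of the 5 largest, with 6 peaks in 11.0 kb that together covered 53.2% of its length and scored from 69.15 to 469.78. The group from 8175598 to 8193392 held 6 peaks in 17.8 kb with scores from 53.49 to 2801.74, so its strongest peak scored 52.4 times its weakest. In the 102 pairs the higher score was a median of 1.42 times the lower, and it was at least 2 times the lower in 32 pairs.

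Peaks in groups were much like peaks that stood alone. The 126 peaks in groups of 3 or more had a median width of 670.5 bp (95% interval 649 to 715) and a median score of 81.1 (73.6 to 89.1). The 204 in pairs had a median width of 676 bp (653 to 699) and a median score of 82.2 (77.0 to 88.3). The 443 that stood alone had a median width of 659 bp (649 to 673) and a median score of 78.5 (74.9 to 81.6). All of these intervals overlap. At least 100 was scored by 34.1%, 32.4% and 31.8% of the peaks in groups, in pairs and alone.

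Empty stretches were found along all of X, with the longest near its proximal end. The longest, from 21465609 to 21834736, was 369 kb and lay between peaks scoring 58.21 and 315.43. The second, from 7205053 to 7526879, was 322 kb, and began at the end of a group of 4 peaks. The next were from 21994521 to 22249186 (255 kb), from 237548 to 470734 (233 kb) and from 10855280 to 11069904 (215 kb). Of these 5, then, 2 lay in the most proximal 1 Mb of the span, 1 near the distal end and 2 in between. Over the whole arm 7 gaps exceeded 200 kb.

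The longest empty stretch of X was 13.1 times its mean gap of 28.1 kb. The longest of 2L, from 16809266 to 17380620, was 571 kb or 12.2 times its mean gap. That of 3L, from 136521 to 607959, was 471 kb or 11.8 times, and that of 3R, from 25616534 to 25934986, was 318 kb or 7.58 times. X thus had a shorter longest stretch in kb than 2L and 3L, and the longest of the 4 arms relative to its spacing. Each of these is a single extreme value with no error. Whether unassembled bases lie inside them was not tested.

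The 24 empty 100 kb bins of X formed 20 runs, of which 17 were single bins. Runs of 2 bins lay from 7300001 to 7500000 and from 22000001 to 22200000, and a run of 3 from 21500001 to 21800000. The distal 50% of the span had 10 empty bins and the proximal 50% had 14. The longest run was 4 bins on 2L, 4 on 3L and 2 on 3R. The gaps over 100 kb were split likewise on X, with 14 in the distal and 20 in the proximal 50% of the span.

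X peaks were slightly narrower than those of each of 2L, 3L and 3R. Their median width was 665 bp (95% interval 654 to 677, quartiles 587 and 773, range 368 to 2308 bp). The median was 685 bp on 2L (672 to 701), 703 bp on 3L (686 to 718) and 705.5 bp on 3R (694 to 713), and 698 bp over the 3 arms together (690 to 706). The difference of -33 bp against the 3 arms is small beside the spread of widths within X. The intervals of X and of the nearest arm, 2L, overlap. Peaks wider than 1 kb made up 6.99% of X peaks (54 peaks, exact 95% interval 5.29 to 9.02), against 11.0% on the 3 arms (187 peaks, 9.53 to 12.6).

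Median scores did not differ in the same way, while scores of at least 100 made up a somewhat smaller share on X. The median score was 80.3 on X (95% interval 76.9 to 82.5), against 83.8 on 2L, 82.8 on 3L and 79.5 on 3R, and 81.8 on the 3 arms together (79.5 to 83.9). A score of at least 100 was reached by 32.3% of X peaks, against 34.4% on 2L, 34.8% on 3L and 36.5% on 3R. Width and score come from the same calling, and higher scoring X peaks were wider. Median width was 912 bp in the 78 highest scoring X peaks and 652 bp in the remaining X peaks.

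The width difference was therefore also taken between peaks of like score. The peaks of the 4 arms were cut into 5 score classes, and the X median was below the median of each of the 3 arms in each class (15 of 15 comparisons). These comparisons reuse the same X median within a class, so they are not independent. In the lowest 25% of scores X peaks had a median width of 559 bp (95% interval 545 to 574), against 604.5 bp on the 3 arms (597 to 612). From 25 to 50% the medians were 639 bp on X (624 to 646) and 661 bp on the 3 arms (648 to 670). In these 2 classes the intervals did not overlap. In the upper 3 they did, with 703 bp on X against 716.5 bp from 50 to 75%, 809 against 833.5 bp from 75 to 90%, and 912 bp (864 to 993) against 965 bp (946 to 987) in the highest 10%.

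**Figure D5:**
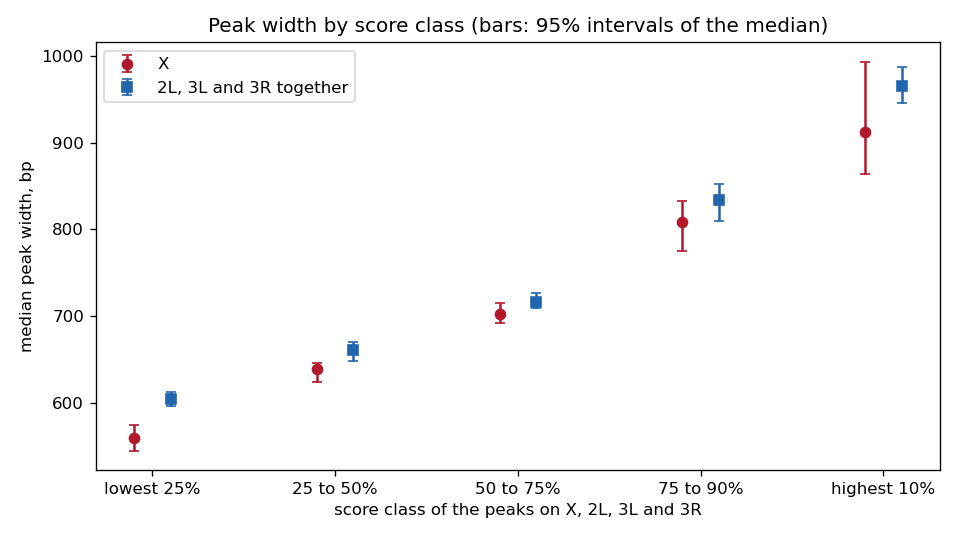
Median peak width (vertical axis, bp, not starting at 0) in 5 score classes of the peaks on X, 2L, 3L and 3R (horizontal axis), for X and for the other 3 arms together, with 95% intervals of the median from order statistics. The X median is the lower in each class, and the intervals do not overlap in the lowest 2 classes but do in the upper 3.

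Median widths of the 21 complete 1 Mb bins of X ran from 626 bp, in the bin from 21000001 to 22000000, to 777 bp, in the bin from 1000001 to 2000000. The bin next to the widest, from 2000001 to 3000000, had a median of 636 bp. Of these bins 19 had a median under 698 bp, the pooled median of the 3 arms, whereas 34 of the 69 bins of those arms did. In the bin with the widest peaks 45.2% of the 31 peaks scored at least 100, the highest share of any complete bin. The bin from 4000001 to 5000000 had the same share, 45.2% of 31 peaks, but a median width of 647 bp. The share was lowest, at 16.7%, in the bin from 11000001 to 12000000.

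The strongest peaks of X were scattered along the chromosome. The highest, from 8188165 to 8190204, was 2040 bp wide and scored 2801.74, more than 2 times the score of any other X peak. The second, from 21267554 to 21268629, scored 991.13 and stood alone. It lay distal to the longest empty stretch but not at its edge, where the peak scored 58.21. The third, from 7165088 to 7166056, scored 915.71, and the fourth, from 12644735 to 12645882, scored 810.82. The fifth, from 15005085 to 15006595, scored 740.53 and was the most isolated of the 10 strongest, with its nearest neighbour 138 kb away. The remaining 5 of the 10 strongest began at 8314980, 10500426, 17428053, 4295405 and 2136699 and scored 714.72, 702.49, 688.2, 631.95 and 617.44.

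Of these 10 peaks 6 stood alone, 3 lay in pairs and 1 lay in a group of 6. Their widths ran from 785 to 2040 bp. A score above 500 was reached by 14 of 773 peaks on X, against 6 of 479 on 2L, 14 of 572 on 3L and 12 of 652 on 3R. The 78 highest scoring peaks were found in 21 of the 23 fixed 1 Mb bins that X touches, and from distal to proximal 19, 24, 15 and 20 of them lay in the 4 stretches of 25% of the span.

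The widest peaks of X overlapped in part with the strongest, and all of the 5 widest were among the 22 highest scores. The widest, from 8294149 to 8296456, was 2308 bp with a score of 361.97, and the second, from 1541625 to 1543868, was 2244 bp with a score of 422.6. The strongest peak of the chromosome was the third widest. The fourth widest, 1987 bp, closed the 9-peak group, and the fifth, from 10593097 to 10595003, was 1907 bp with a score of 370.64. Of the 5 widest, 4 lay in groups of 3 or more. The narrowest peaks were 368 bp (20155710 to 20156077, score 65.61), 380 bp (11074563 to 11074942, score 53.3) and 412 bp (6332142 to 6332553, score 56.3).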

How the data were processed

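The 1 ChIP sample has 1 deposited peak list for both replicates, and the 2 input samples were not analysed here. Reads were aligned with Bowtie to BDGP5, per the submitters' processing notes, and MACS was the peak caller, per the file headers. Not given in the sources used here are tool versions, the control, the calling limit and the way replicates were combined. Each deposited score is a MACS value from the authors, whose scale no header states. It was never under 50 and was used only within this list. The other deposited columns are start and end, a unit of bases, given here counted from 1.

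From these, densities, fixed 1 Mb and 100 kb bins, gaps, groups and widths were computed in Python 3.11.15 with numpy 2.4.6, pandas 2.3.3 and scipy 1.17.1. Arm lengths were taken as spans from first to last peak, so densities can be too high. Shares have exact (Clopper-Pearson) intervals and medians order-statistic intervals, both at 95%. All intervals treat peaks as independent and cover counting error only, and read depth is unknown. The computations were tested on simulated lists. Regions were named by rank (10 highest scores, 5 widest, 3 narrowest, 3 densest and sparsest 1 Mb bins, 5 fullest 100 kb bins, 5 largest groups, 5 longest empty stretches). The members, distances and tests were chosen with earlier results of these data known. Alternatives were score limits, joined peaks, other bins and distances, and leaving out arms or bins. The gene table at hand is of Release 6, so no gene, annotation or sequence was used.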

Additional observations from a re-analysis of the deposited data

How the results depend on the processing

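Of 49 alternatives over 9 results, 31 stayed within the 95% interval of the value in the report (within 1.5 times it for the variance ratio and the longest stretch, which have no interval). The other 18 moved. For the width difference the interval used was that of the X median, with the median of the 3 arms held fixed. A direction could reverse only for the density ratio, the distal share, the variance ratio and the width difference, and none of these did. Only the density ratio and the width difference set X against the other arms. All other results, the distal share and the variance ratio included, were followed on X alone. Their difference from the other arms was not checked in this way. With the upper 50% of scores the variance over mean was 1.14, against 1.58 at a score of at least 100 with fewer peaks still, and the cause was not tested. In that upper 50% empty 100 kb bins made up 27.5%, the median gap was 33.1 kb, 21.8% of peaks had a neighbour within 5 kb and 7.80% lay in groups of 3 or more, all with fewer peaks by construction. With peaks under 1 kb apart joined, the median gap was 17.5 kb, 27.1% had a neighbour within 5 kb and 9.65% lay in groups, the closest neighbours being removed by construction. At a score of at least 100 the density ratio was 1.38 (95% interval 1.19 to 1.60), and the cause was not tested. Neighbour distances of 2, 10 and 20 kb gave 16.6%, 59.9% and 78.9%, and group gaps of 2 and 10 kb gave 4.66% and 33.1%. Without the densest 1 Mb bin 56.7% of peaks lay in the distal 50% of the span, against 52.4% under even density, the bin removed being proximal. Width differences by score class, like the density without the 3 densest bins, were chosen after seeing the data. The values that moved were -45.5 bp in the lowest 25%, -13.5 bp from 50 to 75% and -53 bp in the highest 10%. With the arm median again held fixed, their intervals were -59.5 to -30.5, -24.5 to -1.5 and -101 to 28 bp. All 3 overlap the -44 to -21 bp of the main value, and a change of the width difference with score was not tested. Leaving out 2L, 3L or 3R kept the density ratio between 1.45 and 1.56 and the width difference between -39.5 and -27 bp. Complete bins only gave a ratio of 1.57 and added heterochromatic sequences 1.56. No replicate could be left out, and no paired analysis was possible because both ChIP replicates share 1 list, with no input list analysed here. Depth limits could not be examined.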

Other observations

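The density of X relative to 2L, 3L and 3R was also taken by score class of the peaks on these 4 arms. The ratio was 1.53 in the lowest 25% of scores (195 X peaks, exact 95% interval 1.28 to 1.82), 1.66 from 25 to 50% (206 X peaks, 1.40 to 1.96) and 1.48 from 50 to 75% (191 X peaks, 1.24 to 1.76). It was 1.42 from 75 to 90% (111 X peaks, 1.13 to 1.78) and 1.31 in the highest 10% (70 X peaks, 0.977 to 1.73). The interval of the highest 10% holds 1. A change of the ratio with score was not tested.

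The 2 ends of X were thinly covered. The first 1 Mb of the build, of which X peaks span the part from 160068, held 10 peaks with a median width of 549.5 bp and a median score of 56.8. The peaks beyond 22000000 numbered 4, up to the last at 22420899, and their median score was 114. Of the 34 gaps over 100 kb, 4 lay before 2 Mb and 6 beyond 20 Mb.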
